A study of Equus caballus with 4 samples.

Results

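Integrins are receptors of the cell surface, each made of 1 alpha and 1 beta chain, that bind proteins of the extracellular matrix outside the cell and link them to the actin cytoskeleton inside it. Laminins are trimers of 1 alpha, 1 beta and 1 gamma chain and are the main adhesive proteins of the basement membrane, the sheet of matrix that wraps every muscle fibre. In skeletal muscle both the fibre and the satellite cell, the stem cell between the fibre and its basement membrane, hold on to laminin. The main integrin among their laminin receptors is the one that joins ITGA7 to ITGB1. The chains examined here are those whose gene symbol on the array follows the naming pattern of an integrin alpha or beta chain or of a laminin chain. There were 34 such genes, 25 integrin and 9 laminin, measured by 84 of the 43603 gene probes and taken from 24998 gene names in all.

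The arrays carried RNA of equine satellite cells from m. semitendinosus, a hind limb muscle, taken on day 3 of differentiation. The treated cultures had received gamma-oryzanol (GO), which consists of ferulic acid esters of sterols and triterpene alcohols from rice bran, at 0.125 µM for 24 h, with hydrogen peroxide (H2O2) at 3 mM during the last 1 h. The control cultures had received no GO, and the labels say no more of them. The study's methods give their medium DMSO, the vehicle of GO, and its outline of the experiment gives them H2O2 as well. The comparison is therefore of cells with and without GO, both exposed to H2O2. Each of 4 two-colour arrays on 1 slide held one treated RNA in Cy5 (red) and one control RNA in Cy3 (green), with no dye swap, so that a dye effect and the treatment cannot be told apart. The cells came from a single primary line grown on collagen I, which makes the 4 biological replicates cultures of that line and not separate animals. The study took its muscle from young stallions.

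Of all gene spots, 56.7% to 61.4% were well above background in the treated channel and 54.9% to 61.3% in the control channel. All values below are log2 ratios of treated over control after background correction and loess normalisation unless stated otherwise, so that 0 is no difference, a positive value is higher expression in the cells that received GO and a negative value is lower expression. Values carry the SD over 4 arrays. A probe was tested when the scanner software had marked it as well above background on every array in the treated or in the control channel, a gene was read from its brightest tested probe, and a difference passed when the limma p-value, adjusted by Benjamini-Hochberg over all 24233 tested probes, was under 0.05. Levels of different genes are not compared, because each probe has its own affinity.

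Markers of skeletal muscle, and also of fibroblasts, were read on the array. All 11 muscle markers matched by symbol (MYOD1, MYF5, MYOG, DES and others) were tested, whereas 0 of 7 endothelial and 0 of 5 epithelial markers were, and PECAM1, CDH5, EPCAM and CDH1 were not well above background. Of 11 leukocyte markers 5 were tested and 1, CD14, was lower (20% passed, against 17.1% of all genes tested). PAX7 and CDH15, further markers of satellite cells, were not matched by symbol. Of the 11 muscle markers 7 were higher with GO and 0 lower, where 9.92% of all genes tested were higher, and the other 4 (MYOD1, MYF5, DES and ACTA1) did not pass. The median log2 ratio over the list was 0.25, and the mean log2 signal over the list ranged from 11.72 to 11.88 in the treated channel and from 11.46 to 11.53 in the control channel. Of 8 fibroblast markers matched by symbol 6 were tested, and of these THY1 was higher and LUM lower (33.3% passed, against 17.1% of all genes tested). Over the 27 tested probes of this list 1 passed as higher and 6 as lower. The mean log2 signal over the fibroblast list ranged from 14.02 to 14.08 in the treated channel and from 13.91 to 14.1 in the control channel. In bulk RNA a change in the number of cells of a type and a change in RNA per cell cannot be told apart, and the part of these markers in the results below was not tested.

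The sequences of the probes show where each chain was read. Among all 43603 probes, 5 held, in an open frame of the probe strand, codons for GFFKR, the membrane-proximal motif that integrin alpha chains share, and all 5 belong to integrin alpha genes. They are shown 5′ to 3′ because they place these readings at the same point of 5 related chains, the start of the tail inside the cell, with capitals on the GFFKR codons (EquCab1, strands as in the files).
ITGA1, chr21:14811147-14811206, minus strand: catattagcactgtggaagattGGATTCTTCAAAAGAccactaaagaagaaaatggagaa
ITGA2, chr21:14689385-14689901, minus strand: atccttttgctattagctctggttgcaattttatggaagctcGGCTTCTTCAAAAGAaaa
ITGA2B, chr11:17967155-17967989, plus strand: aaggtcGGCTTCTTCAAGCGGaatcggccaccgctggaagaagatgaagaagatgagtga
ITGA5, chr6:71271169-71271874, minus strand: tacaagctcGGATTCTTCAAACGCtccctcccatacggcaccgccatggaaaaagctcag
ITGAV, chr18:52066788-52067104, plus strand: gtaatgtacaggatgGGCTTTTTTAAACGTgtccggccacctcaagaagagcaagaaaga

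The codons for the shared residues differ between the chains, and so does the rest of each probe. All 5 were tested, and their mean log2 ratios ran from -0.35 for ITGA1 through -0.068 for ITGAV, 0.039 for ITGA2 and 0.13 for ITGA5 to 0.30 for ITGA2B. The ITGA2, ITGA2B, ITGA5 and ITGAV probes each cover more than 60 bases of the genome (517, 835, 706 and 317 bases), so they cross an exon junction, whereas the ITGA1 probe lies in 1 stretch.

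The 5 probes of ITGB1, the beta chain that most integrin alpha chains of muscle cells require, are shown because its call depends on which of them is read, in the order of their signal, brightest first. Capitals mark the bases that a probe shares with another ITGB1 probe. The first pair shares 30 bases, and the third probe shares 26 bases with the fourth and 21 with the fifth, so the 5 probes read 2 stretches of the transcript and are not 5 independent measurements.
ITGB1 probe 1, chr29:3971893-3971952, plus strand: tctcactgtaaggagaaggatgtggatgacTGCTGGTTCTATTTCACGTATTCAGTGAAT
ITGB1 probe 2, chr29:3971923-3971982, plus strand: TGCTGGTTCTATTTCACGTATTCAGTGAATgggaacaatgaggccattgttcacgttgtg
ITGB1 probe 3, chr29:3966506-3968019, plus strand: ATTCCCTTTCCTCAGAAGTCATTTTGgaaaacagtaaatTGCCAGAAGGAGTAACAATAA
ITGB1 probe 4, chr29:3966472-3967985, plus strand: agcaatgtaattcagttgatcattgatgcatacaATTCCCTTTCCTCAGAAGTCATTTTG
ITGB1 probe 5, chr29:3967999-3968058, plus strand: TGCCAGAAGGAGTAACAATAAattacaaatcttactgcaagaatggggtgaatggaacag

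The remaining probes on which a result turns are the other probes of ITGA1, the ITGB7 probe and both probes of LAMA2. Capitals on the ITGB7 probe mark codons that read NPxY (the motif of beta chain tails that binds talin, found on 0.17% of all probes). The first LAMA2 probe ends in TGA, a stop codon in an open frame of the probe. No annotation was used to place it in the coding sequence.
ITGA1 brightest probe, chr21:14811207-14811266, minus strand: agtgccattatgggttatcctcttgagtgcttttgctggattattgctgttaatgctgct
ITGA1 upstream probe, chr21:14833739-14833798, minus strand: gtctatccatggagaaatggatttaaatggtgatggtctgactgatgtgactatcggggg
ITGB7, chr6:70262506-70262811, minus strand: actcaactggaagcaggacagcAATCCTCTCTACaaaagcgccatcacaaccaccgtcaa
LAMA2 first probe, chr10:70788394-70788453, plus strand: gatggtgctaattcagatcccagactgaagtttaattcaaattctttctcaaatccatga
LAMA2 second probe, chr10:70555580-70555639, plus strand: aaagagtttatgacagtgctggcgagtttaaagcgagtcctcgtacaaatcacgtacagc

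Of the 34 genes, 19 were tested, 13 integrin and 6 laminin, through 42 probes. The other 15 did not meet that condition with any probe. Read by the brightest probe, 3 of 13 integrin genes passed: ITGA2B was higher, and ITGA1 and ITGB7 were lower. ITGB7 was tested only through its control channel, where its signal was the higher one, and it is counted in the shares below. With probes required to be well above background in both channels, ITGB7 was not tested and 2 of 12 integrin genes passed, 1 higher and 1 lower. Of 6 laminin genes 1 passed, LAMA2, which was higher. Over all 13693 gene names tested 17.1% passed, 9.92% higher and 7.16% lower, which is near the 21.1% (4 of 19) of the members. The median log2 ratio was 0.056 over the 19 members, 0.039 over the integrins and 0.16 over the laminins, against 0.0088 over all genes tested. On all 4 arrays the ratio had the same sign for 11 of 19 members, where 43.7% of all genes tested did. The 4 treated signals lay wholly above or wholly below the 4 control signals for ITGA2B, ITGB7 and LAMA2, which is 3 of 19 members against 13.3% of all genes tested. No member both passed and reached a fold change of 1.3, as 1.42% of all genes tested did, but this depends on the background correction and the other settings. ITGA2B and ITGB7 did both with a normexp offset of 0 and on the ratios of the scanner software, ITGB7 with a running median over the signal, LAMB3 without background correction, and ITGB1 without the filter on dim probes. These calls need nearly the whole set of arrays: without array 1, 3 or 4, 0 of 19 members passed, and over all probes 2, 38 and 0 passed. Without array 2, 4 of 13 integrin and 3 of 6 laminin genes passed, and 3900 of all 24233 tested probes did. With median centring in place of loess 0 of 19 members passed, and 12 probes in all.

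**Figure D1:**
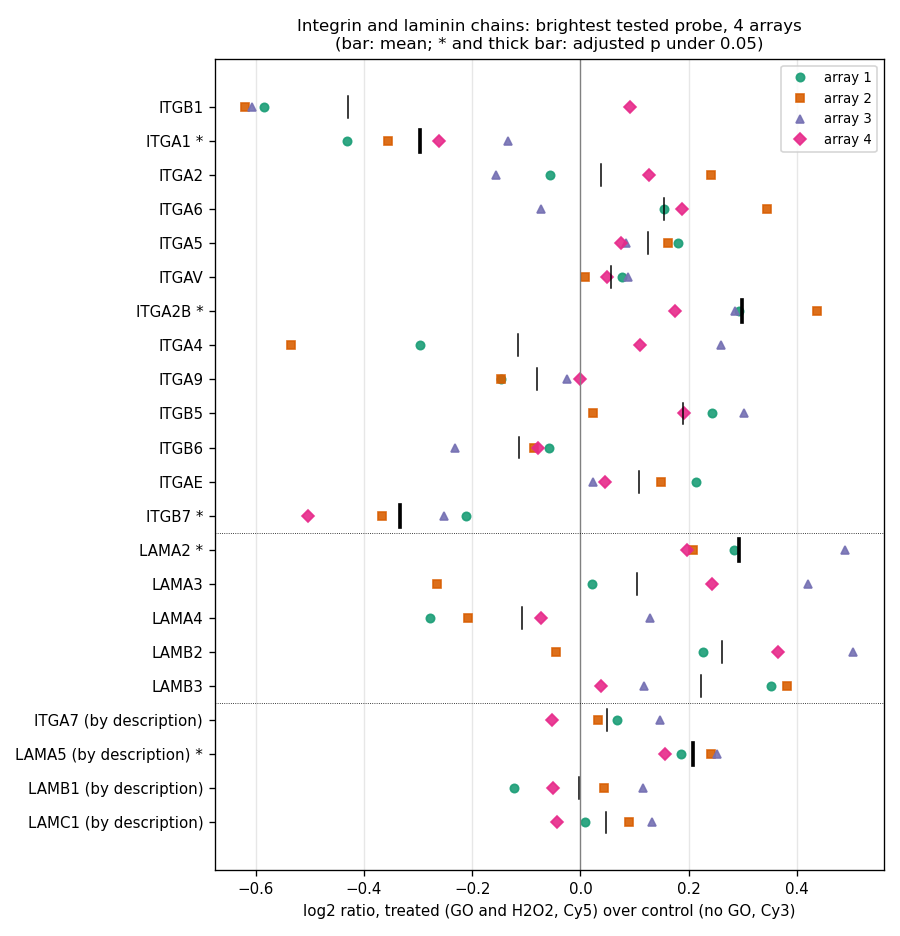
Log2 ratio of treated over control (x axis) on each of the 4 arrays for the brightest tested probe of 18 integrin and laminin genes and of 4 further chains known only by the probe description (y axis). Bars mark the mean, and stars the 5 genes that passed; ITGB1 has the lowest mean (-0.43) and 1 array on the other side of 0.

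ITGB1 was lower on average with every one of its probes. The brightest probe read -0.58, -0.62, -0.61 and 0.091 on arrays 1 to 4, a mean of -0.43 ± 0.35 with a 95% interval from -0.72 to -0.14, and its adjusted p-value of 0.0553 missed the threshold. The first 3 arrays lay close together and array 4 stood apart. The log2 signals were 13.1, 13.3, 13.2 and 13.5 in the treated channel and 13.7, 14.0, 13.8 and 13.4 in the control channel, so the groups overlapped, and array 4 had both the highest treated and the lowest control value. The other 4 probes passed. Probe 2 read -0.54, -0.55, -0.49 and -0.028 (mean -0.40 ± 0.25, adjusted p 0.0343), and probe 3 read -0.47, -0.46, -0.26 and -0.048 (mean -0.31 ± 0.20, adjusted p 0.0401). Probe 4 read -0.31, -0.35, -0.14 and -0.099 (mean -0.23 ± 0.12, adjusted p 0.0393), and probe 5 read -0.42, -0.37, -0.25 and -0.23 (mean -0.32 ± 0.089, adjusted p 0.0167). Array 4 gave the ratio nearest to or above 0 with each probe. It lay furthest from the other arrays with the brightest pair and next to array 3 with probe 5. The gene therefore counts as not passed by the brightest probe and as lower by the mean over its probes, which was -0.34 with an adjusted p-value of 0.0321.

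**Figure D2:**
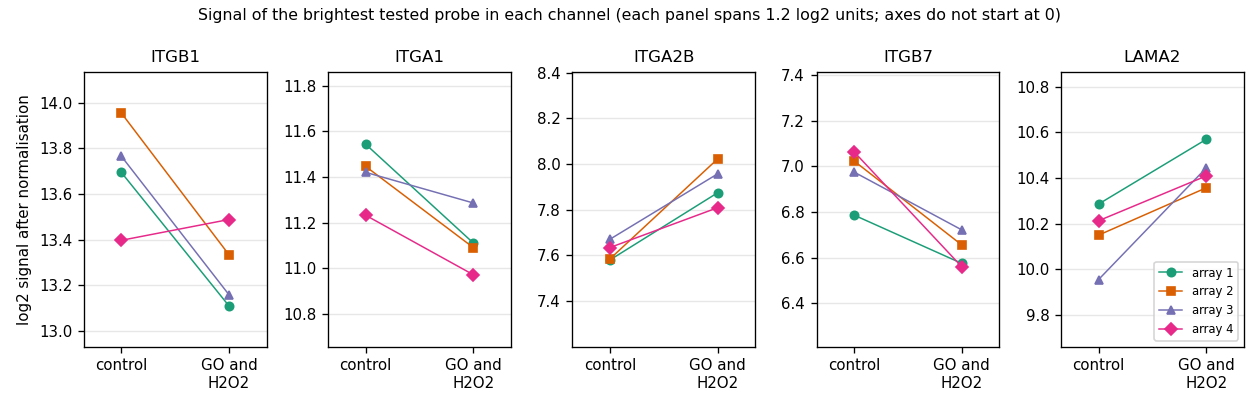
Normalised log2 signal (y axis) in the control (Cy3) and treated (Cy5) channel of the brightest tested probe of ITGB1, ITGA1, ITGA2B, ITGB7 and LAMA2, with the 2 channels of an array joined by a line. For ITGB1 the line of array 4 runs from 13.4 to 13.5 while the other 3 fall.

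Among the alpha chains that bind collagen, ITGA1 had lower expression. Its brightest probe read -0.43, -0.36, -0.13 and -0.26 (mean -0.30 ± 0.13, adjusted p 0.0241), and the probe with the GFFKR codons, which abuts it on the genome, read -0.44, -0.36, -0.25 and -0.35 (mean -0.35 ± 0.079, adjusted p 0.0149). All 4 arrays were below 0 with both, and array 3 was the weakest. The upstream probe, which was dimmer, read -0.26, -0.13, -0.041 and -0.090 (mean -0.13 ± 0.093, adjusted p 0.104) and did not pass, so the probes of ITGA1 lie on the same side of 0 and on both sides of the threshold. The signals of the brightest probe still overlapped between the channels, from 10.97 to 11.29 in the treated and from 11.23 to 11.54 in the control channel. ITGA2, whose probes lie next to those of ITGA1 on chromosome 21, read -0.056, 0.24, -0.16 and 0.13 (adjusted p 0.717), with an interval from -0.13 to 0.21. The remaining collagen-binding chains, ITGA10 and ITGA11, were not tested.

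The laminin-binding chain ITGA6 was higher on 3 of 4 arrays, with 0.15, 0.35, -0.072 and 0.19, and did not pass (mean 0.15 ± 0.17, adjusted p 0.153). ITGA3 and ITGB4, which form further laminin receptors, mostly in epithelia, were not tested. ITGA7, the alpha chain typical of muscle, has no probe under its own symbol and lies outside the naming rule. A probe whose description names integrin alpha 7, on the unplaced chromosome of the build, read 0.068, 0.033, 0.15 and -0.053 (mean 0.048 ± 0.083, adjusted p 0.476). Its 95% interval ran from -0.061 to 0.16.

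Of the alpha chains that bind the RGD sequence of fibronectin and vitronectin, ITGA2B was higher. It is known as the alpha chain of the fibrinogen receptor of platelets. Its only probe read 0.29, 0.44, 0.29 and 0.17 (mean 0.30 ± 0.11, adjusted p 0.0205), and its log2 signals ran from 7.81 to 8.02 in the treated channel and from 7.58 to 7.67 in the control channel without overlap. It stood clear of the background in both channels of every array. ITGB3, which pairs with ITGA2B in platelets and with ITGAV elsewhere, was not tested with any of its 5 probes. ITGA5, the fibronectin receptor chain, read 0.18, 0.16, 0.084 and 0.075, all above 0, and did not pass (mean 0.13 ± 0.053, adjusted p 0.0753), nor did its second probe (mean 0.082, adjusted p 0.287). ITGAV, which binds vitronectin with several beta chains, had 6 tested probes, of which 2 had means above 0 and 4 below. The brightest read 0.077, 0.0087, 0.088 and 0.050 (mean 0.056 ± 0.035, adjusted p 0.329), the means of all 6 lay between -0.13 and 0.056, and 0 of 6 passed.

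Of the beta chains that pair with ITGAV, ITGB5 read 0.24, 0.024, 0.30 and 0.19, above 0 on every array, and missed the threshold (mean 0.19 ± 0.12, adjusted p 0.0559, interval from 0.061 to 0.32). Without array 2, which was the lowest, its mean was 0.25 and the adjusted p-value 0.0278. ITGB6 was below 0 on every array by its brightest probe (mean -0.11 ± 0.080, adjusted p 0.122), while the second probe, which overlaps it, had a mean of -0.017. ITGB8 was not tested.

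ITGA4 and ITGA9, alpha chains that bind fibronectin, VCAM1 and tenascin, did not pass. ITGA4 had 5 tested probes, and its brightest read -0.30, -0.53, 0.26 and 0.11 (mean -0.12 ± 0.37, adjusted p 0.546). The arrays kept their order over the 4 probes that lie in an overlapping row. Array 3 was above 0 and arrays 1 and 2 below 0 each time, so these probes differed less from each other than the arrays did. The fifth probe, further upstream, read -0.28, -0.47, -0.063 and -0.0045. ITGA9 had 1 of 5 probes tested, with a mean of -0.079 ± 0.078 and an adjusted p-value of 0.242.

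**Figure D3:**
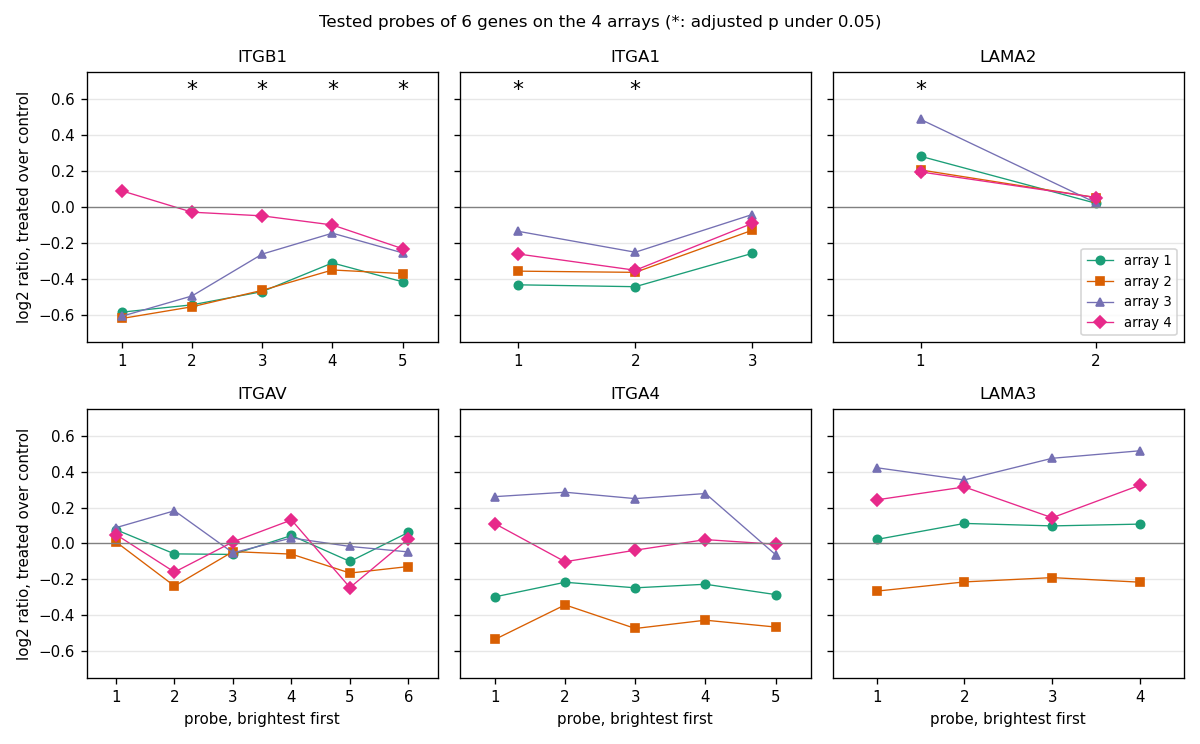
Log2 ratio of treated over control (y axis) for each tested probe (x axis, brightest first) of ITGB1, ITGA1, LAMA2, ITGAV, ITGA4 and LAMA3, with one line per array; stars mark probes that passed. The lines of ITGA4 and LAMA3 stay apart from probe to probe, with array 3 highest on all but 1 probe of ITGA4, whereas the lines of ITGAV cross.

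Of the 7 chains best known from leukocytes, ITGAL, ITGAM, ITGAX, ITGAD and ITGB2 were not tested, and ITGAL, ITGAM and ITGAD were not well above background on any array in either channel. ITGB7 was lower, with -0.21, -0.37, -0.25 and -0.50 (mean -0.33 ± 0.13, adjusted p 0.0203). Its treated signal was not well above background on any array and its control signal was on all 4, so it was tested only through the control channel. The bound worked out for the difference, 1.26-fold lower in the treated cells (log2 -0.333), equals the measured mean and sets no separate limit. The adjusted p-value is that of the measured values. The log2 signals ran from 6.56 to 6.72 in the treated channel and from 6.79 to 7.06 in the control channel, near the dim end of the scale. The size of the measured mean depends on the background correction: it was -0.62 with a normexp offset of 0 (adjusted p 0.0279) and -1.23 on the ratios of the scanner software (adjusted p 0.0438). ITGAE, the partner of ITGB7 in lymphocytes of the gut lining, had probes on opposite sides of 0: the brighter read 0.21, 0.15, 0.023 and 0.046 (mean 0.11 ± 0.089, adjusted p 0.149) and the second, which abuts it, read 0.071, -0.014, -0.16 and -0.17 (mean -0.070, adjusted p 0.380).

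Among the laminin alpha chains, LAMA2 had higher expression. LAMA2 is the alpha chain of the laminin of mature muscle fibres, and its loss causes a congenital muscular dystrophy. Its brightest probe read 0.28, 0.21, 0.49 and 0.20 (mean 0.29 ± 0.14, adjusted p 0.0262). The log2 signals ran from 10.4 to 10.6 in the treated channel and from 9.96 to 10.3 in the control channel and did not overlap. The second probe lies far upstream in the gene, had a mean log2 signal of 6.93, and read 0.022, 0.054, 0.024 and 0.054 (mean 0.038 ± 0.018, adjusted p 0.484). It did not pass. The part of the background offset in the ratio of this dim probe was not tested. On the ratios of the scanner software, which use no offset, the second probe read -0.059, 0.23, 0.30 and 0.14, and the first 0.27, 0.18, 0.50 and 0.31.

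LAMA3, an alpha chain known mainly from epithelial basement membranes, had 4 tested probes with means from 0.11 to 0.18, of which 0 passed. Its brightest read 0.022, -0.27, 0.42 and 0.24 (adjusted p 0.503). A pair of its probes have the same sequence and the same position, and so show the spread between spots of 1 array.
LAMA3 repeated probe, chr8:38903339-38903398, plus strand: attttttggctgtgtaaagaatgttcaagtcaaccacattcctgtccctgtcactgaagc

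These twin probes differed by 0.0038, 0.0015, 0.16 and 0.0098 on arrays 1 to 4. They share the labelling and the hybridisation of each array, so this covers none of the spread between cultures or arrays. LAMA4, the alpha chain of endothelial and embryonic laminins, read -0.28, -0.21, 0.13 and -0.072 (mean -0.11 ± 0.18, adjusted p 0.307), and its second probe, which overlaps the first, had a mean of -0.12. LAMA1 was not tested. A probe described as laminin alpha 5, which lies outside the naming rule, read 0.19, 0.24, 0.25 and 0.16 (mean 0.21 ± 0.045, adjusted p 0.0237) and was higher. It did not pass without array 1, 3 or 4 (adjusted p 0.0953, 0.0721 and 0.0856).

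The laminin beta chains did not pass. LAMB2, the beta chain of the neuromuscular junction, read 0.23, -0.045, 0.50 and 0.36 (mean 0.26 ± 0.23, adjusted p 0.0787). Without array 2 its mean was 0.37 and the adjusted p-value 0.0213. LAMB3 read 0.35, 0.38, 0.12 and 0.037, all above 0 (mean 0.22 ± 0.17, adjusted p 0.0656). LAMB4 and LAMC3 were not tested. The beta 1 and gamma 1 chains, which most laminins of muscle contain, were found only by their descriptions. The LAMB1 probe read -0.12, 0.044, 0.12 and -0.050 (mean -0.0030 ± 0.10, adjusted p 0.970, interval from -0.12 to 0.12). The brightest of 3 LAMC1 probes read 0.0083, 0.089, 0.13 and -0.043 (mean 0.047 ± 0.079, adjusted p 0.485), and 0 of 3 passed.

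**Figure D4:**
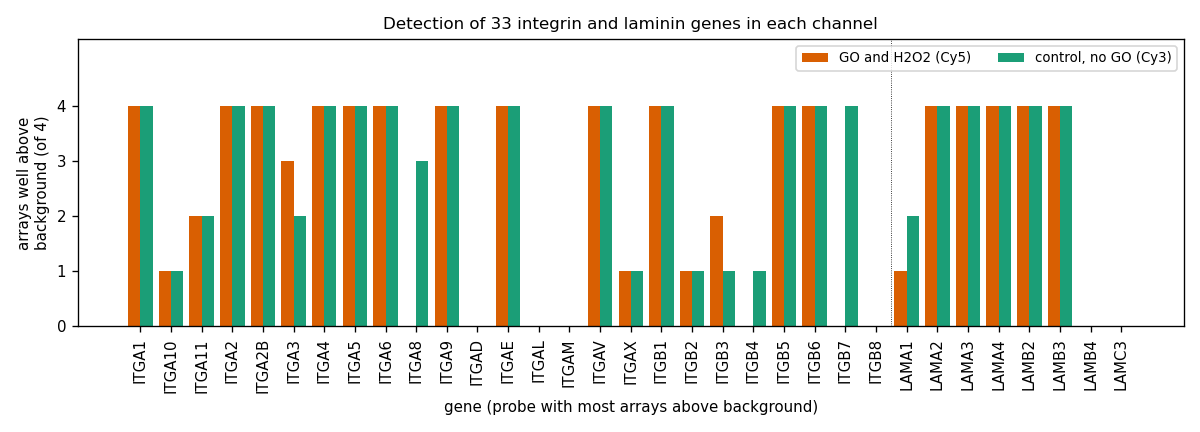
Number of arrays, out of 4, on which the best probe of each of 33 genes was well above background (y axis), in the treated (orange) and control (green) channel, for integrin genes left and laminin genes right of the dotted line. The best probes of 17 genes reached 4 arrays in both channels, and ITGB7 reached 4 in the control and 0 in the treated channel.

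Of the 15 untested genes, 6 (ITGAD, ITGAL, ITGAM, ITGB8, LAMB4 and LAMC3) were not well above background on any array in either channel. ITGA8 reached 3 arrays in the control channel and 0 in the treated one, and ITGA3 reached 3 in the treated and 2 in the control channel. The mean ratios of the brightest probes of the 15 genes, given without a test, lay between -0.20 for ITGB4 and 0.17 for ITGB3, with 1 exception. ITGA11 read 2.32 on array 3 and -0.20, -0.092 and -0.057 on arrays 1, 2 and 4. The raw treated signal of ITGA11 was 575 on array 3 and 76.3 to 83.5 on the others, while its raw control signal was 107 to 135 on all 4.

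Some of the genes lie on the same chromosome, and the values of some such pairs are given side by side. ITGA1 and ITGA2 on chromosome 21 read -0.30 and 0.039, and ITGB7 and ITGA5 on chromosome 6 read -0.33 and 0.13. The ratio was highest on array 3 for 8 of 19 members (26.6% of all genes tested) and on array 4 for 2 of 19 (25.8%). Among the laminins, LAMA2, LAMA3, LAMA4 and LAMB2 were highest on array 3, and LAMB3 on array 2.

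The genes that work with these chains were followed in 3 lists of ligands, membrane partners and cytoplasmic linkers, 103 genes in all, of which 79 were matched by symbol and 68 tested. Of these 9 were higher and 2 lower, 16.2% of those tested against 17.1% of all genes. Without array 1, 3 or 4, 0 of 68 passed.

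Among 21 tested matrix ligands and basement membrane proteins, 1 was higher and 0 lower (4.76% passed, against 17.1% of all genes tested), with a median of 0.035. SPP1, osteopontin, an RGD ligand of ITGAV integrins, read 0.24, 0.20, 0.33 and 0.31 (mean 0.27 ± 0.061, adjusted p 0.0179). FN1, fibronectin, the ligand of ITGA5, read -0.16, 0.025, 0.27 and 0.0062 (adjusted p 0.746), and NID1, the nidogen that ties laminin to collagen IV, had a mean of 0.14 ± 0.11 (adjusted p 0.0938). SPARC missed the threshold narrowly with a mean of 0.26 ± 0.18 and an adjusted p-value of 0.0501, a gene singled out after its value was seen.

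Of 17 tested membrane partners 5 were higher and 0 lower (29.4% passed, against 17.1% of all genes tested), with a median of 0.080. BSG, basigin, which associates with ITGB1 integrins, read 0.57, 0.29, 0.50 and 0.58 (mean 0.49 ± 0.13, adjusted p 0.0136). CAV3, the caveolin of muscle, had a mean of 0.35 ± 0.14 (adjusted p 0.0198) and SGCA, a sarcoglycan of the complex that holds laminin through dystroglycan, 0.33 ± 0.095 (adjusted p 0.0167). THY1 and the tetraspanin CD82 had means of 0.28 and 0.20 (adjusted p 0.0290 and 0.0276). DAG1, dystroglycan itself, the other laminin receptor of muscle, read -0.13, -0.099, -0.080 and 0.076 (mean -0.059, adjusted p 0.406).

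Of 30 tested cytoplasmic linkers and signalling proteins 3 were higher and 2 lower (16.7% passed, against 17.1% of all genes tested), with a median of 0.047. FLNC, the filamin of muscle that binds beta chain tails, read 0.45, 0.37, 0.50 and 0.32 (mean 0.41 ± 0.080, adjusted p 0.0125), and NRAP, an actin-anchoring protein of myofibril ends, 0.51, 0.30, 0.35 and 0.41 (mean 0.39 ± 0.091, adjusted p 0.0137). SORBS3, vinexin, had a mean of 0.23 (adjusted p 0.0312). KRIT1, which binds the ITGB1 regulator ITGB1BP1, had a mean of -0.20 ± 0.045 (adjusted p 0.0248), and APBB1IP, which brings talin to integrins, -0.23 ± 0.13 (adjusted p 0.0392). ITGB1BP2, melusin, a muscle protein that binds the ITGB1 tail, read 0.43, 0.020, 0.20 and 0.21 and did not pass (adjusted p 0.0692). The core linkers FERMT2, ILK and VCL had means of -0.0034, 0.089 and -0.10 (adjusted p 0.962, 0.179 and 0.423). TLN1 and PTK2 were not matched by symbol.

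**Figure D5:**
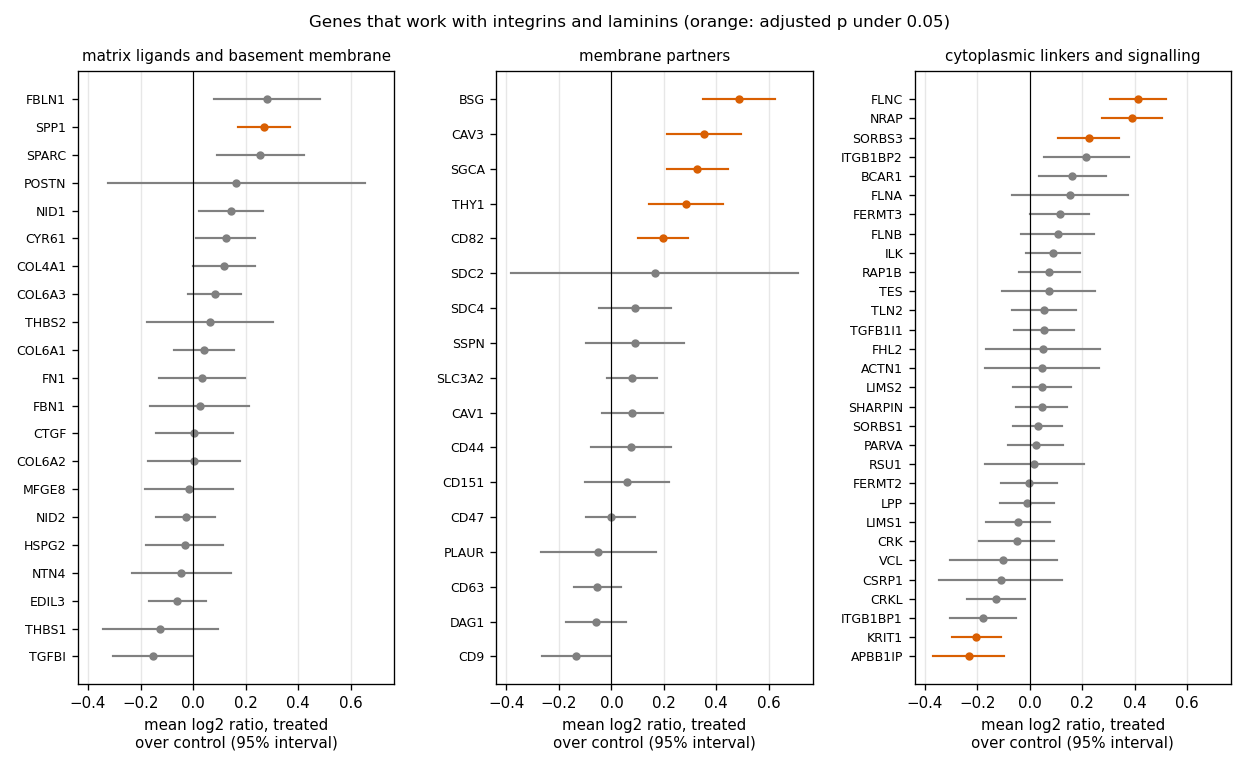
Mean log2 ratio of treated over control with its 95% interval (x axis) for the tested genes of the 3 lists (y axis, sorted by mean); orange marks the genes that passed. Orange genes are 1 of 21 matrix ligands, 5 of 17 membrane partners and 5 of 30 cytoplasmic linkers, with KRIT1 and APBB1IP below 0 and the rest above.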

How the data were processed

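The 4 two-colour Agilent horse arrays were analysed. Per the file headers the authors' scanner output was extracted with Feature Extraction 10.10.1.1 on build EquCab1. The deposited mean signal and background intensity of each channel were used here. The deposited log10 ratio of Cy5 over Cy3 in the scanner output and the series table were identical (largest difference 0). The alternative named Agilent processed signals, or ratios of the scanner software, was the ratio of the deposited processed signals of the channels.

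In R 4.3.3 with limma 3.58.1, intensities were corrected by normexp with offset 50 and normalised within arrays by loess, with control spots given no weight. Outlier spots were dropped (7 to 16 of 43803 gene spots per array), so a probe's spots were averaged without them. The mean log2 ratio was tested against 0 by lmFit and eBayes. The number of arrays, 4, limits the precision. The code was tested on simulated data. Samples were grouped by the labels. The labels call the samples biological replicates, and p-values measure the spread between cultures of 1 line. GFFKR and NPxY were searched by translating each probe. Symbols are those of the array design, and 4 further chains were found by description. No exon or UTR annotation of EquCab1 was used.

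Every member was named except 1 tested laminin gene, which is counted in the totals and whose values are not reported here. Full values were given to members that passed, whose probes disagreed in sign or call, or that are central in muscle (ITGA7, ITGB1, ITGA5, ITGAV, LAMA2, LAMB1, LAMC1), and others were added after their values were seen. From each partner list up to 8 that passed were named, plus 9 fixed genes. The members, lists and tests were chosen with earlier results of these data known. Alternatives were other background corrections, normalisations, filters, tests, probe summaries and left-out arrays.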

Additional observations from a re-analysis of the deposited data

Results flagged for a closer look

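Each of 38 sets of 4 array ratios, those of the brightest probe of each member and of the 4 chains found by description, was checked for an array far from the others, by the gap to its nearest neighbour as a share of the whole range (Dixon's limit at the 95% level). Chance passes this limit in about 1 of 20 sets, and 3 of 38 passed it. ITGB1 had a share of 0.95, with array 4 at 0.091 and the other arrays between -0.62 and -0.58. Without array 4 its mean was -0.60, and 0 of 24233 probes passed in that fit. ITGA11, which was not tested, had a share of 0.942, with array 3 at 2.32 and the others between -0.20 and -0.057. ITGB6 had a share of 0.834, with array 3 at -0.23 and the others between -0.086 and -0.057.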

How the results depend on the processing

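The counts of genes that passed (3 integrin, 1 laminin and 11 partner genes) fell to 0 under several alternatives. With median centring in place of loess they were 0, 0 and 0, and 12 of 24233 probes passed in all. With the methods' t-test after Benjamini-Hochberg adjustment they were again 0, 0 and 0 (5 probes in all), and 4 integrin, 1 laminin and 12 partner genes had an unadjusted p under 0.05. With a fold change of at least 1.3 they were 0, 0 and 3. With no replicate block, the channels taken as separate samples, they were 2, 0 and 5 (594 of 24233 probes in all). Without the filter on dim probes, which let in more genes, 7 of 25 integrin genes passed, and 5298 of 43603 probes in all. Without background correction 2 of 6 laminin genes passed, and 4342 of 24233 probes in all. Leaving out 1 array gave 0 to 4 integrin, 0 to 3 laminin and 0 to 12 partner genes, with 0 without array 1, 3 or 4. Without array 2, 3900 of 24233 probes passed in all. The other alternatives kept each count within 1.5 times. ITGB1 passed without the filter on dim probes (adjusted p 0.0496) and by the mean over its probes (0.0321), and ITGA5 and LAMB3 without background correction (0.0429 and 0.0244).

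No member that passed changed direction under any alternative run. Of those that did not pass, ITGAV was -0.028 by the mean over its probes, and leaving out 1 array gave -0.028 (without array 2) to 0.10 for ITGA2, -0.24 to 0.025 (without array 2) for ITGA4 and -0.00012 (without array 3) to 0.23 for LAMA3. The LAMB1 probe, at -0.0030, turned to 0.022 on the Agilent processed signals, 0.078 with median centring, 0.035 with a running median, and ran from -0.043 to 0.037 with 1 array left out, above 0 without array 1 and without array 4. LAMA5 did not pass on the Agilent processed signals (adjusted p 0.0565), with median centring (0.779), with the methods' t-test (0.0778), with no replicate block (0.132) or without array 1, 3 or 4 (0.0953, 0.0721 and 0.0856). The cause of these differences was not tested. Dim probes limit what can be read for ITGB7, for the second LAMA2 probe and for the 15 untested genes.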
